A study of Mus musculus with 12 samples.

Results

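The mitochondrial carriers are the solute carrier family 25, proteins of the inner mitochondrial membrane that exchange metabolites, nucleotides and cofactors between the cytosol and the matrix. In hepatocytes they serve the urea cycle, gluconeogenesis, fatty acid synthesis from exported citrate, the malate-aspartate shuttle, and the exchange of ATP and phosphate. All have nuclear genes, almost all with a promoter of their own, and a few act in the peroxisome or the outer mitochondrial membrane. The genes described here are the 31 whose names begin with Slc25a in the gene column of either deposited network, of 16197 gene names in all. All 31 matched protein-coding genes in RefSeq's annotation of GRCm38.p6, as did 9593 listed genes in all. That annotation holds 47 protein-coding genes with such a name, and 16 of them were listed in neither network.

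H3K27ac Hi-ChIP recovers contacts between chromatin regions that carry acetylated histone H3 lysine 27, which marks active enhancers and promoters. The cells were hepatocytes from livers of male C57BL/6 mice of 5 months (young) and 25 months (old), with 6 libraries per age from 2 biological replicates in 3 batches of technical repeats. The young mice came from a commercial breeder and the old mice from a national aging stock, so age and stock cannot be told apart. The authors deposited 1 network per age with no replicate named, which was taken as a pool of all 6 libraries. There is then no spread between animals to test against, so no p-values are reported and all values describe these 2 networks. A node is a 5 kb bin, a clique is a set of nodes that the authors grouped, and the size of a gene's clique is the number of nodes in the largest clique that lists it.

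The read depth behind the networks is unknown. The young network had 56928 nodes and the old 40304, and the mean clique had 10.5 and 6.75 nodes. Sizes are given as deposited, and also with old sizes multiplied by 1.56, the ratio of the mean sizes, which are called scaled sizes below. Among markers of liver cell types, 7 of 8 hepatocyte genes were listed at either age, compared with 3 of 6 endothelial genes, 1 of 6 each for stellate cells, cholangiocytes and lymphocytes, and 0 of 6 for Kupffer cells. The endothelial genes listed in young were Lyve1, Pecam1 and Oit3, at 25, 4 and 32 nodes, and in old Lyve1 alone was listed, at 3 nodes. All 7 hepatocyte genes listed were smaller in old as well. With scaled sizes, defined above, 4 hepatocyte genes were smaller and 3 larger, and the 3 endothelial genes remained smaller. The part of other cell types in the carrier values was not tested.

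Most carrier genes lay in smaller cliques in the old network as deposited, as did most protein-coding genes listed. A lower share of carriers than of all genes fell at least 2-fold. Of the 31 carriers, 23 (74.2%) had the smaller clique in old, 6 the larger and 2 an equal one, beside 78.5% smaller, 17.9% larger and 3.61% equal among all protein-coding genes listed. With scaled sizes this order turned for the carriers, to 10 smaller and 21 larger, while among all genes the smaller remained the majority, at 58.6% beside 41.4% larger. On the scale log2((old nodes + 1)/(young nodes + 1)) the carriers had a median of -0.39 and all genes a median of -0.93, and with scaled sizes 0.24 and -0.32. A value of -1 or below, at least 2-fold smaller, was reached by 8 carriers (25.8%) beside 48.6% of all genes, and 1 or above by 4 carriers (12.9%) beside 11.9%. With scaled sizes 6 carriers (19.4%) were at least 2-fold smaller, beside 39.0% of all genes. With 5 nodes added in place of 1 there were 5 (16.1%), beside 36.3%, and Slc25a12, Slc25a31 and Slc25a35, all in small young cliques, were no longer among them. Among genes listed at both ages, 18 of 25 carriers (72.0%) had the smaller clique in old, beside 81.5% of all such genes, and 5 the larger, beside 13.0%. Of these 25, 3 were at least 2-fold smaller, beside 35.7%, and 3 at least 2-fold larger, beside 3.77%. Of the latter 3, Slc25a23 and Slc25a41 share a clique and count as a single event. The other was Slc25a46, listed with 2 nodes in young and 15 in old. The largest cliques with a node in or near Slc25a46 had 17 and 15 nodes, a log2 value of -0.17.

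**Figure D1:**
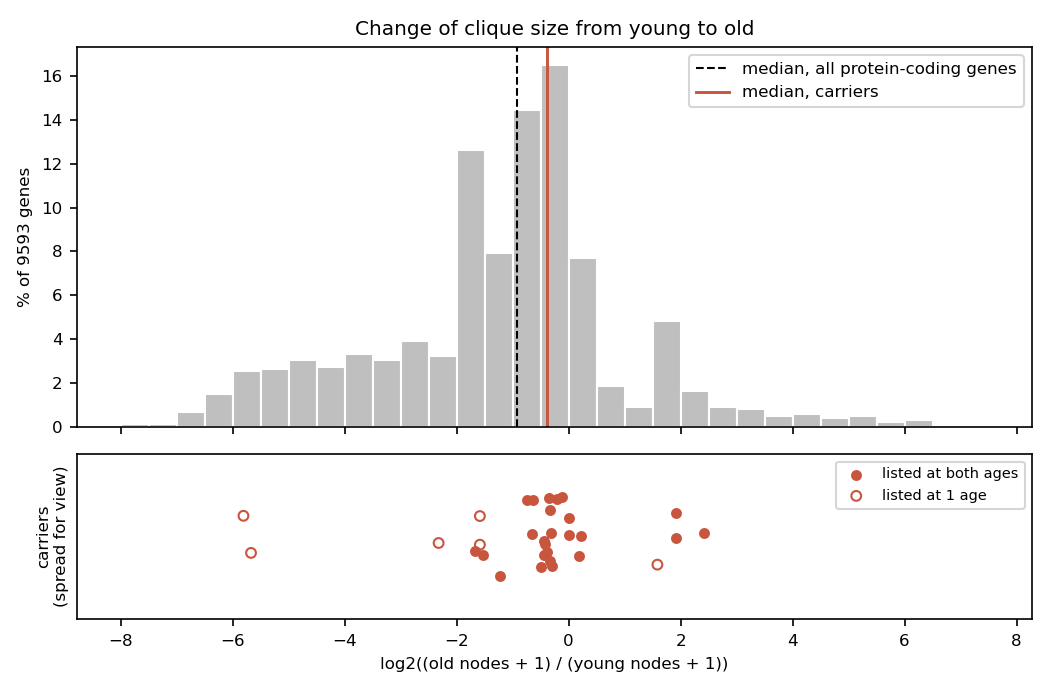
Upper panel, share of protein-coding genes (vertical axis, %) by the change of clique size from young to old (horizontal axis, log2 with 1 node added); lower panel, the 31 carriers, 1 point each, open where the gene is listed at 1 age only. Of the 31 carriers 23 sit left of 0, some of them far from it. The median of the carriers is -0.39, and 0.24 when old sizes are scaled to the young mean.

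The young network listed 30 of the carriers, the old network 26, and both together 25. The 5 listed in young only (16.1% of 31, beside 25.4% of all genes) included Slc25a12, Slc25a25, Slc25a31 and Slc25a35, and the 1 listed in old only (beside 9.44%) was Slc25a48. The 30 young listings fell in 28 distinct cliques and the 26 old listings in 24, since Slc25a23 and Slc25a41 shared a clique at both ages, as did Slc25a29 and Slc25a47. The members of these pairs are neighbours on their chromosomes and are not independent. The median size among the carriers listed was 28 nodes in young (range 2 to 148) and 21.5 in old (2 to 116). Cliques of 50 or more nodes held 8 carriers in young and 4 in old as deposited, Slc25a23 and Slc25a41 in the same clique. With scaled sizes Slc25a11, Slc25a15, Slc25a22, Slc25a39 and Slc25a42 also reached 50 nodes in old. The same share over all genes was not taken, so this count describes the carriers only.

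**Figure D2:**
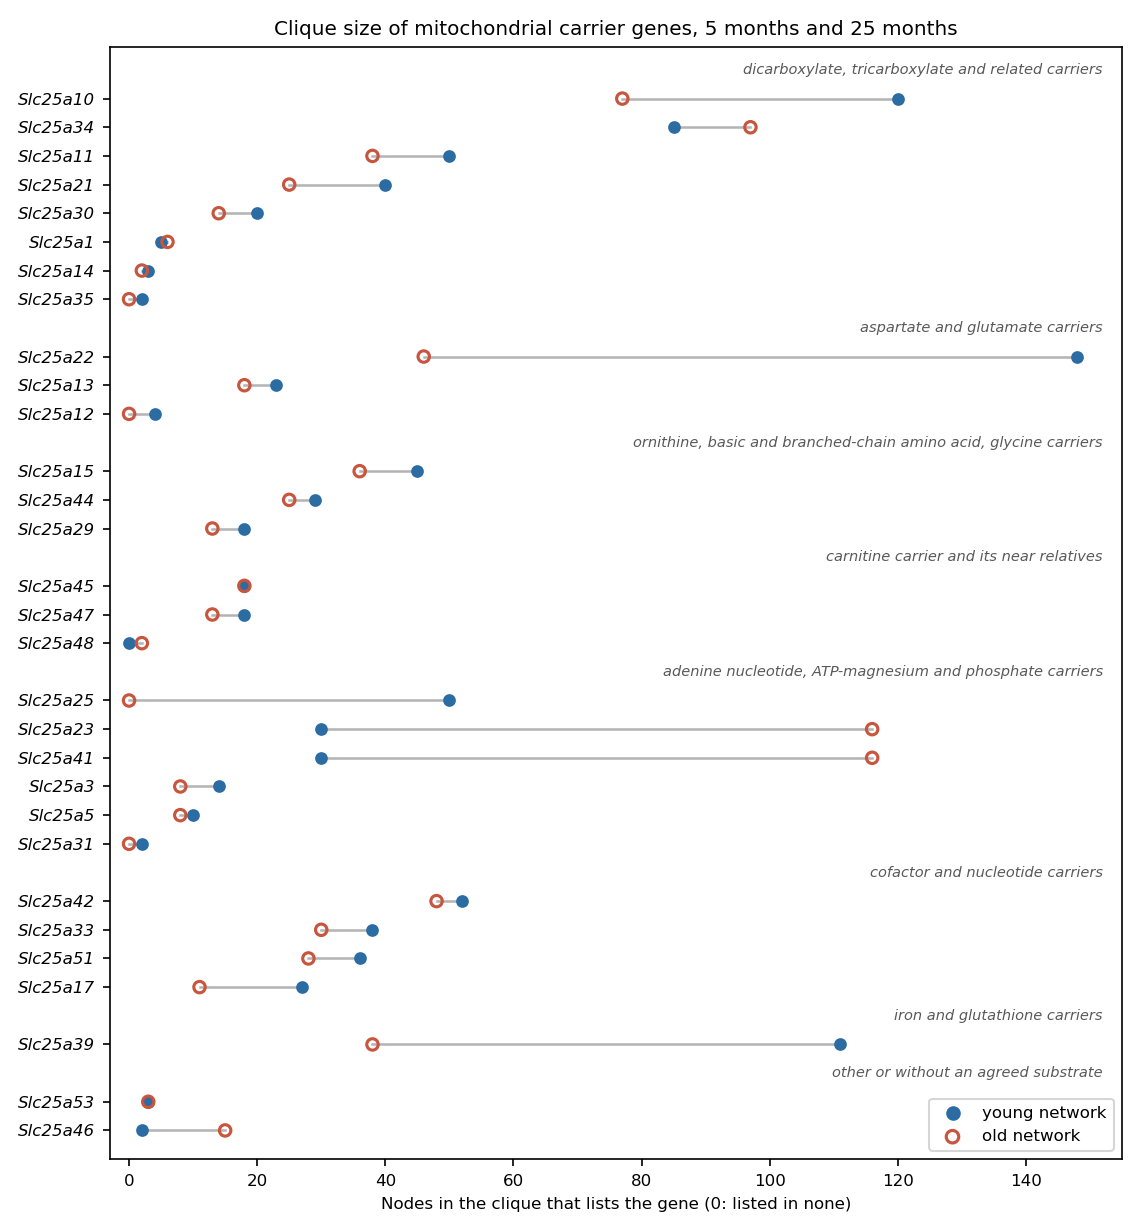
Number of nodes in the clique that lists the carrier, for 30 of the 31 (horizontal axis; 0 where none does) in the young network (filled blue) and the old (open red), by substrate group. The longest lines to the left are Slc25a22 and Slc25a39, at 148 and 46 and at 111 and 38 nodes, and Slc25a23 and Slc25a41 run to the right, from 30 to 116; with old sizes scaled, 21 of the 31 carriers have the larger clique in old.

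Carriers of dicarboxylates, tricarboxylates and their relatives were all listed in young, and 7 of the 8 also in old. Sizes were smaller in old for 6 and larger for 2, with medians of 30 and 19.5 nodes, while with scaled sizes 2 were smaller and 6 larger. Slc25a10 (chromosome 11, 120491837 to 120501161), the dicarboxylate carrier that exchanges malate and succinate for phosphate, was listed with 120 nodes in young and 77 in old. It stood near the top of all listed genes at both ages, at percentile 97.1 and 96.7. Slc25a11, the oxoglutarate carrier of the malate-aspartate shuttle, was at 50 and 38 nodes, and Slc25a21, the oxoadipate carrier of lysine and tryptophan breakdown, at 40 and 25. The citrate carrier gene Slc25a1, whose product supplies citrate for fatty acid and sterol synthesis, was listed in small cliques of 5 and 6 nodes, although the largest cliques that reached the gene were of 9 and 6. Slc25a34, a relative with no agreed substrate, had the highest old size of this group, at 85 nodes in young and 97 in old. The uncoupling protein relatives Slc25a30 and Slc25a14 were at 20 and 14 nodes and at 3 and 2. Slc25a35 was listed with 2 nodes in young and unlisted in old. By position its fall was greater, since the gene was reached by a young clique of 49 nodes and an old clique of 2.

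The 2 aspartate-glutamate carriers of the malate-aspartate shuttle differed in these networks. Slc25a13 encodes citrin, the main form in liver, and Slc25a12 encodes aralar, the main form in brain and muscle. Slc25a13 (chromosome 6, 6041218 to 6217304) was listed with 23 nodes in young and 18 in old, and 13 nodes of each network lay in or within 2.5 kb of the gene, 8 of them the same bins. Slc25a12 (chromosome 2, 71274270 to 71367781) was listed with 4 nodes in young and unlisted in old. No old node lay in or near Slc25a12, compared with 3 young nodes, and none of the 4 nodes of its young clique was in the old network. The young clique of Slc25a13 kept 11 of its 23 nodes (47.8%, exact 95% interval 26.8 to 69.4). The bin at the start site of Slc25a13 was a node at both ages and that of Slc25a12 in young only. The 250 bases before these start sites are shown because of that contrast, from RefSeq's GRCm38.p6 table, on the minus strand, at chr6:6217174-6217423 for Slc25a13 and chr2:71367756-71368005 for Slc25a12. Capitals mark matches to the motif letters searched: an E-box (CACGTG) and a CCAAT box in Slc25a13, and a C/EBP match (TTGCNNAA) in Slc25a12.
Slc25a13: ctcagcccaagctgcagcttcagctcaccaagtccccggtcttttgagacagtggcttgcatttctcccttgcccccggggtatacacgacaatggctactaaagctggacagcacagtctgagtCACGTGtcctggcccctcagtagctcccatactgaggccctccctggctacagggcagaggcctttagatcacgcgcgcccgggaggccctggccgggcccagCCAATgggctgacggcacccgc
Slc25a12: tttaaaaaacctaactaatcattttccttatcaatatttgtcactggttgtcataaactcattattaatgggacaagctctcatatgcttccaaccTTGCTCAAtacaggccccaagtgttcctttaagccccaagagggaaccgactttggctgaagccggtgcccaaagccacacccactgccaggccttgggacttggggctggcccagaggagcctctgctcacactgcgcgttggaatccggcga

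The glutamate carrier Slc25a22 (chromosome 7, 141429749 to 141437874), which brings glutamate into the matrix with a proton, had the largest young clique of the family and the largest fall in nodes. It was listed with 148 nodes in young, in a clique spanning 1960 kb, and with 46 in old, spanning 415 kb. The log2 value was -1.66, and -1.03 with scaled sizes. The fall was mainly a division: 108 of the 148 young nodes (73.0%, 65.1 to 79.9) were still nodes in old, but in 9 cliques. An old clique of 56 nodes, which does not list Slc25a22, held 50 of them, and the old clique that lists it held 37. Near the gene itself 3 of 4 young nodes were kept. The number of genes listed in the clique went from 64 to 24.

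Carriers of ornithine, basic and branched-chain amino acids had similar cliques at both ages. All 3 listed were smaller in old as deposited and larger with scaled sizes. Slc25a15 (chromosome 8, 22375550 to 22398621), the ornithine carrier that links the mitochondrial and cytosolic steps of the urea cycle, was at 45 nodes in young and 36 in old. Of its 45 young nodes 35 (77.8%, 62.9 to 88.8) were kept, all in the 1 old clique that lists it, and the 10 genes listed in the young clique numbered 10 in old as well. Slc25a44, a branched-chain amino acid carrier, was at 29 and 25 nodes, and all 25 old nodes were among the 29 young ones. Slc25a29, a carrier of basic amino acids, was at 18 and 13.

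Among the relatives of the carnitine carrier, Slc25a45, Slc25a47 and Slc25a48 were listed. Slc25a45 was at 18 nodes at both ages, 17 of them the same bins, in a clique that also lists the nuclear noncoding RNA genes Neat1 and Malat1. Slc25a47, which is expressed mainly in liver, shared the cliques of Slc25a29 at 18 and 13 nodes. Slc25a48 (chromosome 13, 56437960 to 56472367), whose product has been described as a mitochondrial choline importer, was unlisted in young and listed with 2 nodes in old. The gene was not bare in young: 6 young and 5 old nodes lay in or near it, 3 of them shared, and cliques of up to 26 nodes in young and 19 in old reached it. The bin of its start site was a node in old only. The 250 bases before that site, the only carrier start site of this kind, lie on the plus strand at chr13:56438105-56438354, with capitals for the GC box (GGGCGG) on either strand.
Slc25a48: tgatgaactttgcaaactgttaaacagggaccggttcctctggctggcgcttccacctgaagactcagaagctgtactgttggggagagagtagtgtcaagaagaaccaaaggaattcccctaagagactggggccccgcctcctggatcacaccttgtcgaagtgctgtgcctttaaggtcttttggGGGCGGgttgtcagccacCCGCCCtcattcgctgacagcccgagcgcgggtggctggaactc

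The ATP-magnesium/phosphate carriers, which set the adenine nucleotide content of the matrix, held the largest gain in nodes and also a loss of listing. Slc25a23 (chromosome 17, 57043711 to 57059909) and its neighbour Slc25a41 (57032772 to 57041654) were listed together with 30 nodes in young and 116 in old, a log2 value of 1.92, or 2.56 with scaled sizes. They moved from percentile 55.0 to 98.4 of listed genes. Of the 116 old nodes 91 were already nodes in young, where they lay in 4 cliques: 50 in a clique of 67 nodes, 23 in the clique of 30 that lists both carriers, 16 in a clique of 29 and 2 in a clique of 3. The gain was thus mostly of nodes present at both ages and grouped together in old. All 5 young nodes in or near Slc25a23 were kept, and the span of the clique went from 350 to 1385 kb.

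Slc25a25 (chromosome 2, 32414487 to 32451470), of the same subfamily, was listed with 50 nodes in young and unlisted in old. The region remained: an old clique of 47 nodes covered the gene, 8 of 9 young nodes in or near it were kept, and 33 of the 50 young nodes (66.0%, 51.2 to 78.8) lay in that old clique. RefSeq gives 3 start sites for Slc25a25, each in a node of the young clique of 50. The outer 2 were also in nodes of the old clique of 47, and the bin of the middle site was in no old node. The sources used here do not say which start site the gene column rests on. The 250 bases before the middle and the most downstream site are shown to set the site that left the network beside 1 that stayed, on the minus strand at chr2:32431152-32431401 and chr2:32424067-32424316. Capitals mark a C/EBP match and 2 CCAAT boxes (ATTGG on the other strand) in the former, and a CRE (TGACGTCA), a C/EBP match, a CCAAT box and a GC box in the latter.
Slc25a25 middle site: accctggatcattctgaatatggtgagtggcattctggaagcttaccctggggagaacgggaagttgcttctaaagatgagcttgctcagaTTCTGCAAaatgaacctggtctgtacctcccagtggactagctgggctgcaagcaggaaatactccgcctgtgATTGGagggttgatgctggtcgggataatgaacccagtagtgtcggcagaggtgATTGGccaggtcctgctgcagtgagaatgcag
Slc25a25 downstream site: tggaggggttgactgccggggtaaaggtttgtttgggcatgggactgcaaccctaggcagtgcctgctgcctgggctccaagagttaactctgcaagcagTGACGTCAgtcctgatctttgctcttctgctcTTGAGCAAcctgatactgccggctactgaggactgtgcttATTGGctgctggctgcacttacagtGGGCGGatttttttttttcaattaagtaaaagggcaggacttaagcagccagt

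The carriers that move the bulk of ATP and phosphate lay in small cliques. Slc25a3, the phosphate carrier that feeds ATP synthase, was at 14 nodes in young and 8 in old, and 7 of the 14 were kept. Slc25a5, the main adenine nucleotide translocase of proliferating and liver cells, was at 10 and 8 nodes, and 12.5 in old with scaling. Slc25a31, the translocase of the male germ line, was listed with 2 nodes in young, and no old node lay in or near it.

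The cofactor and nucleotide carriers described here had smaller cliques in old as deposited, and with scaled sizes Slc25a17 alone of these 4 was smaller. Slc25a42, a coenzyme A carrier, was at 52 and 48 nodes, Slc25a33, a pyrimidine nucleotide carrier, at 38 and 30, and Slc25a51, the carrier of NAD+, at 36 and 28. Slc25a17, which transports cofactors into the peroxisome, was at 27 and 11, a log2 value of -1.22, and -0.62 with scaled sizes. It kept 13 of 27 young nodes (48.1%, 28.7 to 68.1), and all 11 nodes of its old clique were young nodes.

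Slc25a39 (chromosome 11, 102402969 to 102408675), the glutathione carrier, was the only gene listed of the iron and glutathione group. It was at 111 nodes in young and 38 in old, a log2 value of -1.52, and -0.89 with scaled sizes. As with Slc25a22, the young nodes were divided: 73 of 111 (65.8%, 56.2 to 74.5) were kept in 9 old cliques, 34 of them in the clique that lists Slc25a39 and 17 in the next. The 3 young nodes in or near the gene were all kept. Slc25a46, an outer membrane protein linked to mitochondrial dynamics, was at 2 nodes in young and 15 in old. By position it changed little, since 11 of those 15 old nodes lay in a young clique of 17 nodes that also reached the gene. Slc25a53, a carrier with no agreed substrate, was at 3 nodes at both ages.

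**Figure D3:**
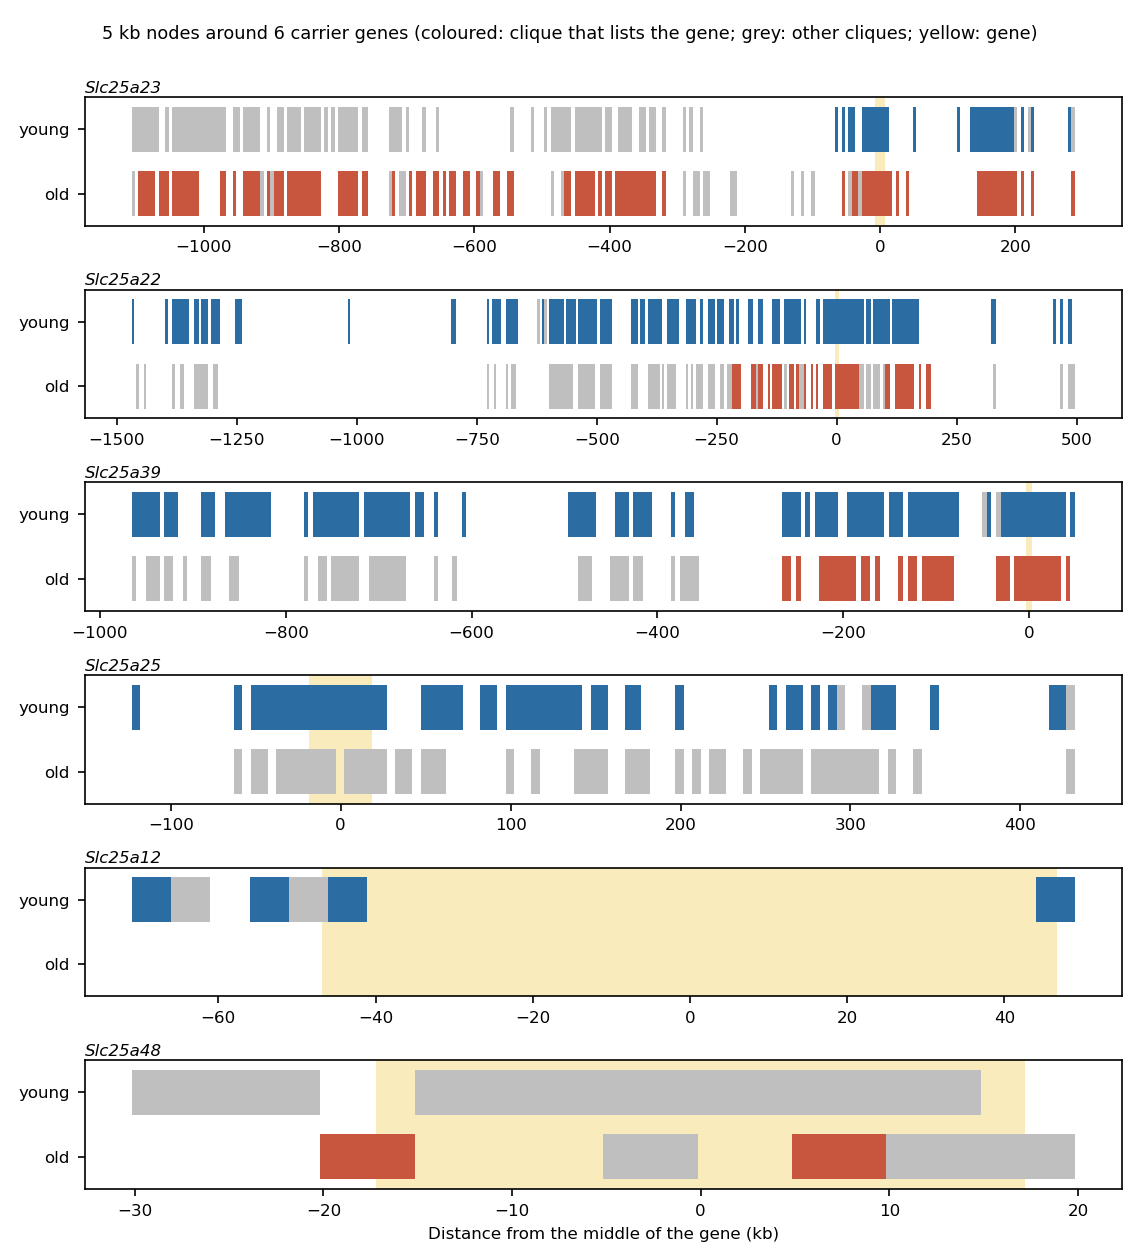
Nodes (5 kb blocks) around 6 carrier genes in young (upper row) and old (lower row), by distance from the middle of the gene (kb); the clique that lists the gene is coloured, other cliques grey and the gene yellow. Slc25a23 shows coloured old nodes where the young ones are grey, Slc25a22 and Slc25a39 the opposite order, Slc25a25 an old gap at the middle of the gene, and Slc25a12 an empty old row.

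Taken by position, the carrier genes kept most of their nodes. In or within 2.5 kb of the 31 genes there were 126 young and 104 old nodes, of which 97 were shared. The share of young nodes kept was 77.0% (exact 95% interval 68.6 to 84.0), beside 61.2% for all protein-coding genes listed, 69.0% for other solute carriers and 55.6% for all young nodes. Of old nodes at carrier genes 93.3% were also young nodes, beside 82.5% for all protein-coding genes. Over the whole cliques that list a carrier, 745 of 1040 young nodes (71.6%) were kept, beside 59.7% for all young cliques that list a protein-coding gene. These shares are not matched on clique size. Intervals cover counting error only and take nodes as independent, which neighbouring bins are not. No node of the listing young clique was kept for Slc25a12, Slc25a31 and Slc25a35, whose cliques had 4, 2 and 2 nodes. In or near Slc25a35 itself, 1 of 3 young nodes was kept. Of carrier cliques 10.7% had no node kept, beside 19.8% of all.

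**Figure D4:**
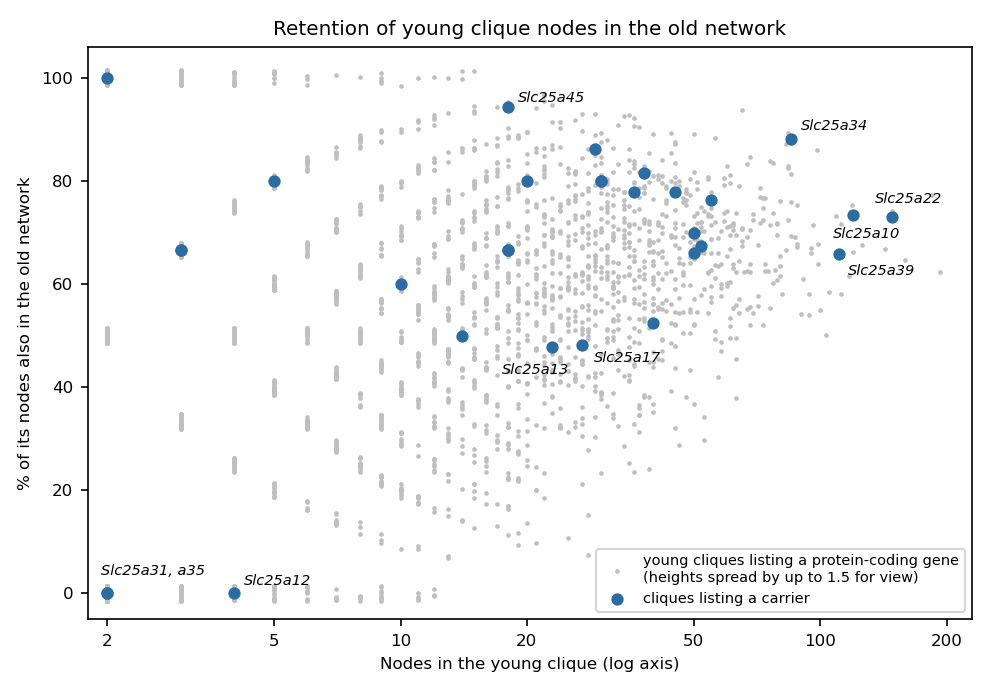
Share of the nodes of each young clique that were also nodes in old (vertical axis, %) by the size of the young clique (horizontal axis, log axis); blue points are cliques that list a carrier, grey points all young cliques that list a protein-coding gene, spread slightly in height. Carrier cliques of 50 or more nodes lie between 65.8% for Slc25a39 and 88.2% for Slc25a34, and the 3 carriers at 0 have cliques of 2 to 4 nodes.

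Of the 31 carriers 25 had promoter sequences in the RefSeq table, with 35 start sites. The bins of 29 of these sites (82.9%, beside 60.5% for all protein-coding genes listed) were nodes at both ages, those of 3 in young only, 1 in old only and 2 at neither age. The bin of at least 1 start site was a node for 24 of these 25 in young (96.0%) and 23 in old (92.0%), beside 86.9% and 70.4% of 7689 protein-coding genes with such sequences. No start site was in an old node for Slc25a12 and Slc25a31, and none in a young node for Slc25a48. Since the gene column may rest on promoters, these shares are not independent of the listing. In the 250 bases before the 35 sites, searched on both strands, 27 (77.1%) held a GC box (GGGCGG), beside 55.1% of 9687 sites of listed protein-coding genes and 32.7% of all 32851 in the table. A CCAAT box was found at 18 (51.4%, beside 35.2% and 33.8%) and an E-box (CACGTG) at 7 of the 35 (beside 8.25% and 6.02%). The NRF1 motif was found at 2 sites (5.71%, beside 7.81% and 3.74%), those of Slc25a3 and Slc25a31. A CRE was found at 1 site (2.86%, beside 2.44% and 1.55%) and a C/EBP match at 3 (8.57%, beside 7.71% and 9.56%). Letters of the ERR motif (TNAAGGTCA; 0.764% and 1.14%) and of the DR1 repeat (0.0310% and 0.0335%) were in none of these windows. Several of the 35 windows overlap, as genes with more than 1 site contribute each of them.

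Carrier genes absent from both networks included some of central use in liver. Among the 16 are Slc25a20, the carnitine-acylcarnitine carrier of fatty acid oxidation, Slc25a4, an adenine nucleotide translocase, Slc25a32, a folate carrier, and Slc25a36, a pyrimidine nucleotide carrier. In or near 7 of the 16 there was no node at either age, Slc25a4, Slc25a24, Slc25a32 and Slc25a36 among them. The other 9 had young nodes and 8 of them old nodes. Slc25a20 was reached by a young clique of 13 nodes and an old clique of 3, but its start site lay in no node. The mitoferrin gene Slc25a28, for mitochondrial iron uptake, was reached by cliques of 76 and 32 nodes, and its start site lay in a young node although the gene was not listed. Cliques that reached Slc25a37, the other mitoferrin, had 16 and 14 nodes. Slc25a38, a glycine carrier needed for haem synthesis, was reached by a young clique of 29 nodes and no old node.

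Other genes of mitochondrial transport had a median change close to that of the carriers, but a larger share fell at least 2-fold. Of 22 genes for other transport across the mitochondrial membranes 15 were listed, 11 smaller and 4 larger in old (7 and 8 with scaled sizes), with a median log2 value of -0.33, or 0.31 with scaled sizes. At least 2-fold smaller were 7 of the 15 (46.7%), beside 25.8% of the carriers and 48.6% of all protein-coding genes. Smdt1, of the calcium uniporter complex, was listed at 63 nodes in young and unlisted in old, where a clique of 28 nodes reached the gene. Sfxn4, a sideroflexin, was at 38 nodes in young with no old node in or near it, and Abcb10, a transporter linked to haem synthesis, at 77 and 4. The pyruvate carrier subunit genes Mpc1 (16 and 14) and Mpc2 (10 and 9) differed little. They were chosen after their values were seen, as were the enzymes below. Of carrier proteins under other names, Mtch1 and Mtch2 were at 60 and 77 nodes in young and unlisted in old, where a clique of 56 nodes reached Mtch1 and none reached Mtch2. The uncoupling protein gene Ucp3 was at 27 and 12.

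Enzymes on either side of the carriers were listed for 19 of 20, 15 smaller and 4 larger in old (10 and 9 with scaled sizes). Their median log2 value was -1, beside -0.93 for all protein-coding genes, and 10 (52.6%) were at least 2-fold smaller, beside 48.6%. With scaled sizes the median was -0.41, beside -0.32 for all protein-coding genes. At least 2-fold smaller were then 6 enzymes (31.6%), beside 39.0%, so the order of these shares turned. In the malate-aspartate shuttle, the cytosolic aminotransferase gene Got1 was at 76 and 8 nodes and the mitochondrial Got2 at 15 and 17, beside 23 and 18 for Slc25a13. In the urea cycle, Cps1 was at 26 and 17 nodes, Ass1 at 5 and 6, Asl at 59 and 60 and Arg1 at 23 and 8, while Otc, which uses the ornithine that Slc25a15 brings in, was at 5 in young and unlisted in old. Acly, which splits the citrate that Slc25a1 exports, was at 40 and 26. Of the other enzymes, Cs was at 159 and 33 nodes and Glud1 at 78 and 32. Cpt2, 1 of the 4 larger in old, was at 20 and 38. Not all listed enzymes are named here, so single genes do not stand for their pathway. Mdh1 was at 3 in young and unlisted in old, and Mdh2 was at 36 and 27.

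Other solute carriers named Slc, mostly of the plasma membrane, numbered 163, with 122 smaller and 31 larger in old (89 and 74 with scaled sizes). Their median log2 value was -0.79 (-0.21 with scaled sizes), and 45.4% were at least 2-fold smaller, beside 25.8% of the mitochondrial carriers. Genes of mitochondrial ribosomal proteins numbered 58, with a median of -0.56 and 46.6% at least 2-fold smaller. With scaled sizes their median was 0.07, with 28 smaller and 30 larger. With 1 network per age these differences between gene sets have no test.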

How the data were processed

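Hi-ChIP libraries of 12 samples, 6 per age, stand behind 4 deposited tables. Per the submitters' processing notes, Bowtie2 and HiC-Pro were used with mm10 and GRCm38. These notes give no versions, and the loop caller, thresholds, clique method, promoter window and merging of libraries are likewise not stated. Per the file headers, the deposited tables give node positions and, for each clique, the number of nodes, gene names and node names. Read and contact counts are not among these items, so depth and its precision are unknown. Every node was a 5 kb bin in exactly 1 clique. These cliques partition the nodes, and whether all nodes of a clique are linked was not examined.

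Tables were read with Python 3.11.15, pandas 2.3.3 and SciPy 1.17.1. Genes were matched by symbol or unique synonym to RefSeq GRCm38.p6, the assembly of mm10. The number of nodes was compared between ages with a pseudocount of 1, and a change of at least 2-fold on that scale was called. Nodes of both ages were matched by bin. The log2 size change was checked on simulated sizes, and the other functions were not tested in this way. All carriers were to be accounted for, with fuller values for up to 10 falls and 10 rises and for members of the 5 largest cliques, and up to 4 genes per other list by largest absolute value. More than 4 enzymes are named, and these were chosen after their values were seen. The members and lists were chosen with earlier results of these data known. Protein features had been planned and were not analysed here. The individual values of 2 genes are not reported here, though counts over gene sets hold them. Start sites and promoter sequences are RefSeq's, and overlapping opposite-strand entries agreed as reverse complements in all 1683 cases.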

Additional observations from a re-analysis of the deposited data

How the results depend on the processing

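No paired analysis was possible because the deposited networks name no replicate, and for the same reason no replicate could be left out. Once sizes were scaled to equal means, 10 carriers were smaller and 21 larger in old, beside 58.6% and 41.4% of all protein-coding genes. Their median log2 value was then 0.24, beside -0.32. Percentile ranks among listed genes also gave 10 smaller (32.3%) and 21 larger (67.7%), beside 53.8% and 46.2% of all protein-coding genes. No log2 median is given for the ranks. Assigning genes by nodes in or near them gave 26 smaller (83.9%) and 3 larger (9.68%), beside 80.3% and 15.4% of all protein-coding genes. The share smaller was then above that of all genes, while as deposited it was below, at 74.2% beside 78.5%. By this assignment 2 carriers were in young only, beside 1231 of 9573 genes, and 0 in old only, beside 489. There Slc25a1, Slc25a46 and Slc25a48 turned from larger to smaller, at -0.51, -0.17 and -0.43, and Slc25a35 went from -1.58 to -4.06. The share of young clique nodes kept was 87.8% with neighbouring bins allowed and 54.3% in the 1 old clique that held most of them. A pseudocount of 5, the smallest clique, cliques of 3 or more nodes, carriers listed at both ages and 1 carrier per pair of cliques left the direction of the counts and of the median, from -0.39 to -0.31. Of the 8 carriers at least 2-fold smaller as reported, a pseudocount of 5 left 5, with Slc25a12 at -0.85 and Slc25a31 and Slc25a35 at -0.49, and 3 were among those listed at both ages. The causes were not tested. Unknown read depth limits all comparisons of size.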

Other observations

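Several carriers were listed in the same clique as liver genes of other functions. Slc25a10 shared its clique with Fasn, the fatty acid synthase gene, and Gcgr, the glucagon receptor gene, at both ages, at 120 and 77 nodes. Slc25a21 shared its cliques of 40 and 25 nodes with Foxa1, a hepatocyte pioneer factor gene, and the same 5 other genes were listed with it at each age. Slc25a39 was listed with Nags, whose product makes the activator of the urea cycle's first enzyme, at 111 and 38 nodes, and Slc25a15 with the outer membrane channel gene Vdac3 at 45 and 36. The clique of Slc25a22 listed Cyp2e1 in young, at 148 nodes, and not in old, and Pnpla2, the gene of a triglyceride lipase, at both ages. For Slc25a23 and Slc25a41, the complement gene C3 was listed with them at both ages, and the lipid droplet gene Plin5 in old only. These genes were chosen after their cliques were seen, and a shared clique says nothing of shared function.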
